A study of Mus musculus with 6 samples.

Results

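Oxidative phosphorylation is carried out by 5 protein complexes of the inner mitochondrial membrane, and the genes described here are the nuclear genes that encode their subunits. They were taken by symbol: exon-sharing isoforms (annotated isoforms and assembled ones that overlap the exons of a known gene) of genes named Nduf with a subunit letter, Sdha to Sdhd, Uqcr, Cox4 to Cox8 or Atp5, without symbols that contain "-ps", and with at least 1 protein-coding isoform. This gave 84 of the 54787 genes with a symbol and an exon-sharing isoform, with 37 genes for complex I, 4 for complex II, 8 for complex III, 18 for complex IV and 17 for complex V. They had 425 isoforms, 384 of them annotated and 41 assembled. The rule used names and transcript types and no measured value.

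Complex I (NADH dehydrogenase) and complex II (succinate dehydrogenase, also an enzyme of the citric acid cycle) pass electrons to coenzyme Q, complex III passes them on to cytochrome c, and complex IV (cytochrome c oxidase) passes them to oxygen. Complexes I, III and IV pump protons as they do so, and complex V (ATP synthase) uses the returning protons to make ATP. Neurons meet most of their demand for ATP this way, and every complex but complex II also needs subunits encoded by mitochondrial DNA.

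RNA came from prefrontal cortex of male C57BL/6 mice that began at an age of 5 weeks and are labelled as 30 weeks old, gavaged once a day for 6 months. The control group (3 samples) received water, which is 0 mg/kg polystyrene nanoparticles (PS NPs), and the TREAT_HIGH group (3 samples) received PS NPs at 50 mg/kg. Libraries were prepared from total RNA depleted of ribosomal RNA, with a stranded kit. The labels list separate samples without saying whether each is 1 mouse, so p-values measure the spread between these samples, which may be technical.

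Estimated counts of linear transcripts summed to between 53344395 and 66004386 per library, and the 84 genes held 0.245% to 0.325% of them. All 37 transcripts of the mitochondrial chromosome, the 13 protein-coding ones included, are listed at 0 in every library, so the subunits made inside mitochondria cannot be set beside the nuclear ones. Cortical marker genes (8 of 8 tested, 1124 to 1487 CPM summed) were present, and muscle marker genes summed to 2.53 to 4.53 CPM, where CPM is the count per 1000000 after scaling of the libraries. Neuronal marker genes (6 of 6 tested) summed to 3567, 3152 and 3755 CPM in control 1 to 3. In TREAT_HIGH 1 to 3 they summed to 4593, 4394 and 4774 CPM, all above the controls. Gene by gene, the groups did not overlap for 1 of the 6. Of the 6 genes, 4 were higher in TREAT_HIGH and 2 lower, with log2 differences from -0.17 to 1.46 (median 0.09). Their part in the level of the members was not tested. Choroid plexus markers (4 of 4 tested) varied most between libraries, with sums of 14.2, 458 and 219 CPM in control 1 to 3 and 24.5, 849 and 532 CPM in TREAT_HIGH 1 to 3. In bulk tissue, fewer cells of a type and less RNA per cell cannot be told apart.

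The promoters of these genes shared motifs that are known from respiratory genes more often than promoters in general. RefSeq windows (GRCm38.p6) from 250 bases before to 50 bases after the start site were matched for 66 of the 84 genes. Both strands were searched for 4 motifs: GCGCANGCG for NRF1, CCGGAAG for the ETS factor GABP, AAGATGGCG for YY1 and AAGGTCA for the oestrogen-related receptors (ERR). The NRF1 motif was in 20 of 66 windows (30.3%), against 7.03% of the windows of all 27025 genes and 9.63% of those of 17492 protein-coding genes. The GABP motif was in 16 windows (24.2%, against 9.93% of all and 12.9% of protein-coding genes). The YY1 motif was in 7 (10.6%, against 1.64% and 2.14%) and the ERR motif in 8 (12.1%, against 5.38% and 4.73%). At least 1 of the NRF1, GABP and YY1 motifs was in 35 windows (53.03%), against 21.8% for protein-coding genes. The YY1 motif lay after the start site in 6 of its 7 genes, whereas the NRF1 motif lay before it in 16 of 20. A match is a description of letters and not a measured binding site.

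The following 3 sequences are the 150 bases that end at the RefSeq start site for the highest-expressed gene with an NRF1 or GABP motif there, the highest-expressed gene with an ERR motif, and Sdha, which has 3 matches in these bases and is the higher-expressed of the 2 genes with that many (the other is Ndufb4). Capitals mark the motifs, in either direction. Atp5h encodes a stator subunit of ATP synthase (chr11:115419920-115420069, minus strand), with the NRF1 motif 141 to 133 bases and the GABP motif 38 to 32 bases before the start site. Atp5g3 encodes a copy of the membrane ring subunit c (chr2:73911327-73911476, minus strand), with the ERR motif 52 to 46 bases before it. Sdha encodes the flavoprotein of complex II (chr13:74350241-74350390, minus strand), with 3 NRF1 motifs.
Atp5h: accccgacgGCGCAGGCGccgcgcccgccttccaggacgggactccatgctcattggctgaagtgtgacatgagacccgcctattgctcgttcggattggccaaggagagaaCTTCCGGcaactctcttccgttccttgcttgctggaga
Atp5g3: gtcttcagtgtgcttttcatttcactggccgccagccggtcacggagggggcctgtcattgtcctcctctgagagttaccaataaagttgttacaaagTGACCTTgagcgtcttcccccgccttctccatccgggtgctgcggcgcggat
Sdha: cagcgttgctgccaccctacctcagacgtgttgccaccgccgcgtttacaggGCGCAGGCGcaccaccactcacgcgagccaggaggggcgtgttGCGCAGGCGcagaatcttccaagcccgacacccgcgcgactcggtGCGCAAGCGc

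**Figure D1:**
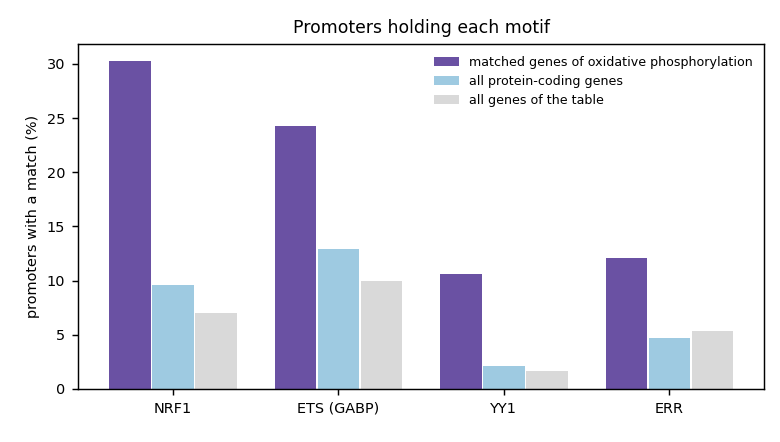
Share of promoter windows that hold each of 4 motifs on either strand (y axis, percent), for the 66 matched genes of oxidative phosphorylation, for protein-coding genes and for all genes of the RefSeq table. The NRF1 motif was in 30.3% of the 66 windows and in 7.03% of all.

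Levels within the complexes spanned a wide range. Levels are given in FPKM (fragments per kilobase of transcript and per 1000000 fragments), summed over the isoforms of a gene, as the mean of 6 libraries unless groups are named. The median member was at 18.7 FPKM. The highest were Atp5a1 at 127.9 FPKM and Atp5b at 120.1 FPKM, the alpha and beta subunits of the catalytic head of ATP synthase, then Cox4i1 at 102.6 FPKM, a regulatory subunit of complex IV. Of the counts of Cox4i1, 48.6% were on retained-intron isoforms and 27.7% on protein-coding ones. In complex I the 7 core subunits that carry the redox centres had a median of 23.1 FPKM, against 11.1 FPKM for the 30 other members. These 30 are called accessory here and include, by name, Ndufa4 and Ndufa4l2. Ndufs1 (39.9 FPKM) and Ndufv2 (39.7 FPKM), both core subunits, led complex I. Sdha (66.4 FPKM) and the iron-sulphur subunit Sdhb (63.5 FPKM) were above the membrane anchors Sdhd (16.2 FPKM) and Sdhc (6.72 FPKM). Protein-coding isoforms held 89.2% of the counts of Sdha and 14.8% of those of Sdhb. The complex III core proteins Uqcrc2 (55.1 FPKM) and Uqcrc1 (34.1 FPKM) stood on either side of the hinge protein Uqcrh (42.1 FPKM).

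**Figure D2:**
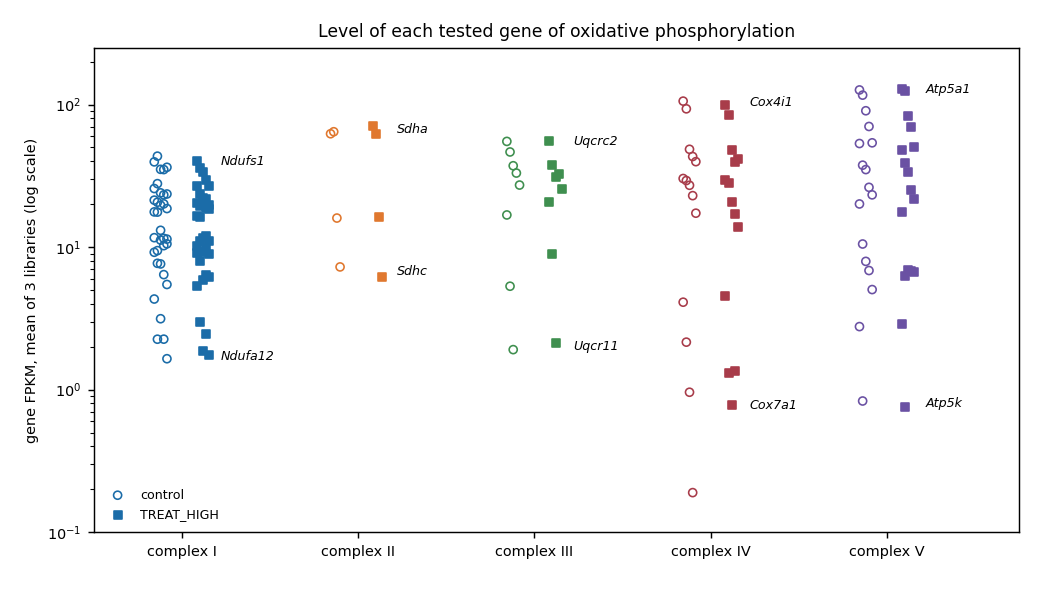
Level of each of the 78 tested genes by complex, as the mean FPKM (log axis) of 3 control libraries (open circles) and 3 TREAT_HIGH libraries (filled squares). The highest and the lowest gene of each complex are named, and levels run from 127.9 FPKM for Atp5a1 to below 1 FPKM for Cox7a1.

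For complex IV subunits with a tissue-restricted copy, the ubiquitous form had the higher level. Cox6a1 was at 28.8 FPKM and the heart and muscle form Cox6a2 at 0.867 FPKM. Cox4i1 stood beside 0.0918 FPKM for Cox4i2, the form known from lung. Cox6b1 was at 23.9 FPKM beside 0.461 FPKM for the testis form Cox6b2. Cox8a was at 15.6 FPKM, with 0.159 FPKM for the muscle form Cox8b, and Cox8c is listed at 0 in all 6 libraries. Cox7a2 was at 89.2 FPKM, its relative Cox7a2l, which helps to join complexes III and IV, at 30.0 FPKM, and the muscle form Cox7a1 at 0.772 FPKM. Cox7b was at 41.3 FPKM and its testis form Cox7b2 at 1.74 FPKM, from 0.841 FPKM in TREAT_HIGH 2 to 4.25 FPKM in control 3. The copies below the level for testing ran from 0 to 0.28 CPM in single libraries for Cox4i2, from 0.171 to 0.583 CPM for Cox6b2, from 0 to 0.234 CPM for Cox8b and from 0 to 0.28 CPM for Ndufa4l2. Cox5a (48.5 FPKM) and Cox5b (4.33 FPKM) are different subunits, not copies, and so are no such pair. Of the 3 genes for subunit c of ATP synthase, Atp5g3 was at 50.7 FPKM, Atp5g2 at 18.8 FPKM and Atp5g1 at 8.38 FPKM. Ndufa4, grouped here by its name with complex I although its protein is counted with complex IV, was at 11.2 FPKM and its relative Ndufa4l2 at 0.154 FPKM.

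The comparison of TREAT_HIGH with control asked whether expression of these genes differed after 6 months of PS NPs. No gene of oxidative phosphorylation passed the test. Of 20272 genes with a mean of at least 0.5 FPKM, 78 belonged to the complexes: 35 of complex I, 4 of II, 8 of III, 14 of IV and 17 of V. Ndufa13, Ndufa4l2, Cox4i2, Cox6b2, Cox8b and Cox8c were below this level. With the quasi-likelihood test of edgeR, 0 of 78 had an adjusted p under 0.05, where 0.0247% of all tested genes did (5 genes). At an unadjusted p under 0.05 the count was also 0 of 78, against 2.73% of all tested genes. DESeq2 likewise gave 0 at either threshold (0.232% and 3.31% of all tested genes), and limma on log2(FPKM + 0.1) gave 0 adjusted and 1 unadjusted (0% and 2.89%). The edgeR adjusted p was 0.9997 for each of the 78.

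The differences were small and their intervals often narrow. The log2 difference (TREAT_HIGH minus control, from edgeR) had a median of -0.04 over the 78 genes and -0.01 over all tested genes. Of the members 31 were above 0 and 47 below. Above 0 were also 9835 of all 20272 tested genes and 6533 of the 12981 with a coding isoform (median 0.0014). The standard error of the members' differences had a median of 0.20. The 95% interval lay within a 2-fold change either way for 64 of 78 members (82.1%), against 64.1% of all tested genes and 77.8% of those with a coding isoform. For the 4521 other coding genes in the middle range of the members' FPKM this share was 88.8%, with a median standard error of 0.18. Of these genes 2425 had a difference above 0 (median 0.012). The interval lay within 1.5-fold for 40 of 78 members and for 2735 of those 4521 genes. The small negative median rested on single libraries. It was 0.02 without control 3, with 42 members above 0, and 0.05 without TREAT_HIGH 1, with 47 above 0.

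**Figure D3:**
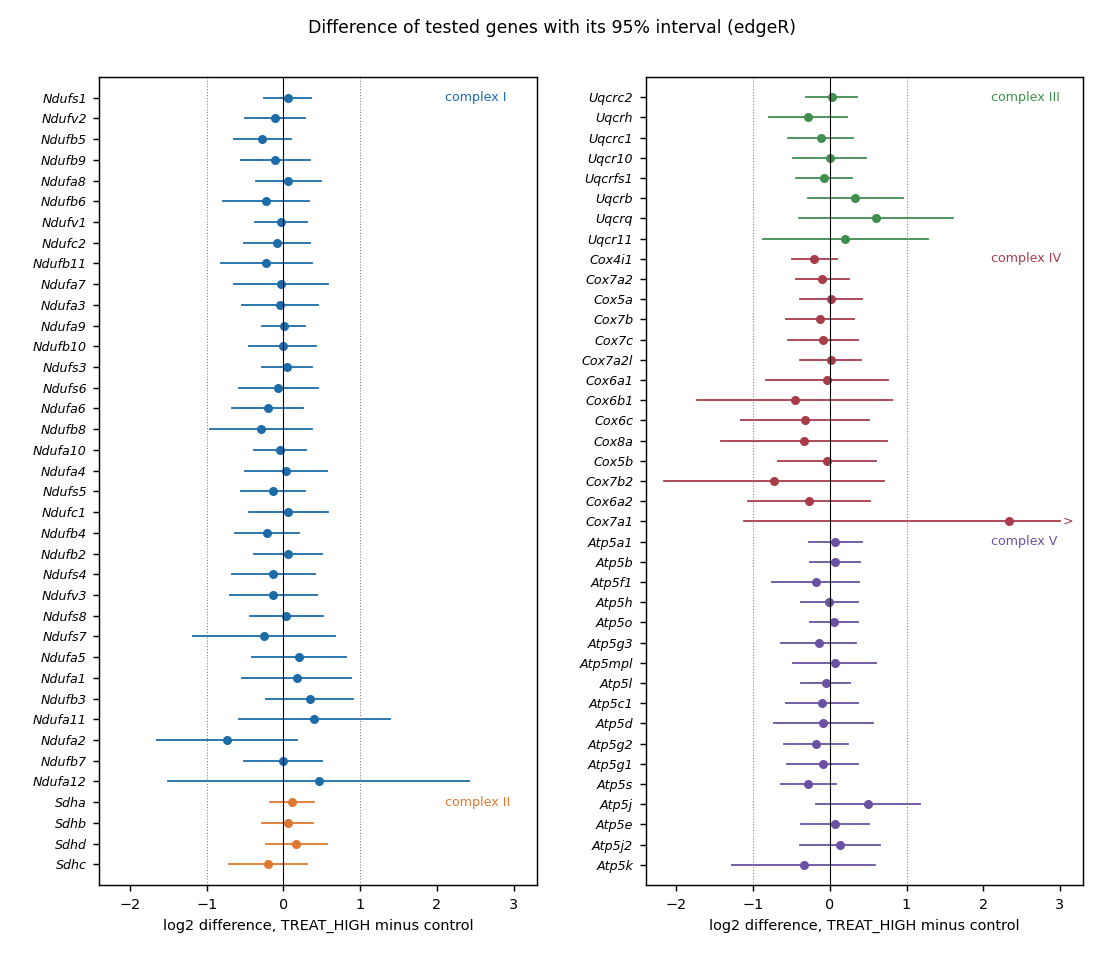
Log2 difference of TREAT_HIGH minus control (points) with its 95% interval from edgeR (bars) for the tested genes, by complex and in order of level, with 1 gene of complex I not shown. Dotted lines mark a 2-fold change, which the intervals of 64 of all 78 genes did not reach, and the bar of Cox7a1, cut at the edge, runs to 5.80.

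Summed over members, control libraries 1 to 3 stood at 1952, 2019 and 2375 FPKM and TREAT_HIGH 1 to 3 at 1754, 2026 and 2273 FPKM (2115 ± 228 and 2018 ± 260 FPKM, SD, n = 3 each). The groups overlapped, and the spread within each group exceeded the distance between their means. By complex, the median log2 difference was -0.04 for I, 0.08 for II, 0.01 for III, -0.11 for IV and -0.05 for V. Above 0 were 14 of 35 genes for I, 3 of 4 for II, 4 of 8 for III, 3 of 14 for IV and 7 of 17 for V. Of all 20272 tested genes 9835 were above 0.

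Libraries of the same group differed in the level of the members. TREAT_HIGH 1 was the lowest library for 37 of 78 members (47.4%; 24.6% of all tested genes and 30.0% of those with a coding isoform), and control 3 was the highest for 25 and TREAT_HIGH 3 for 22. In TREAT_HIGH 1 the median deviation of log2 CPM from the mean of the 6 libraries was -0.16 for complex I, -0.13 for III, -0.15 for IV and -0.12 for V, and -0.03 for II. In control 3 these medians were all above 0, from 0.08 for complex II to 0.23 for IV. TREAT_HIGH 1 was also the lowest library for 6 of 6 striatal and 4 of 4 blood marker genes, and their part in the level of the members was not tested. The low values of TREAT_HIGH 1 were most frequent among short transcripts. It was the lowest library for 17 of the 26 shortest members (366 to 623 bases) and for 7 of the 26 longest (1001 to 4660 bases).

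The share of counts on assembled transcripts inside introns, over all genes, was 19.7%, 18.7% and 15.5% in control 1 to 3 and 19.9%, 16.9% and 15.9% in TREAT_HIGH 1 to 3. Ordered by this share, the libraries stood in the reverse of their order by the summed FPKM of the members, with TREAT_HIGH 1 at one end and control 3 at the other. This order was noticed after both values were seen, and its part in the level of the members was not tested. Members themselves had few intronic counts, 1.82% to 2.75% per library.

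**Figure D4:**
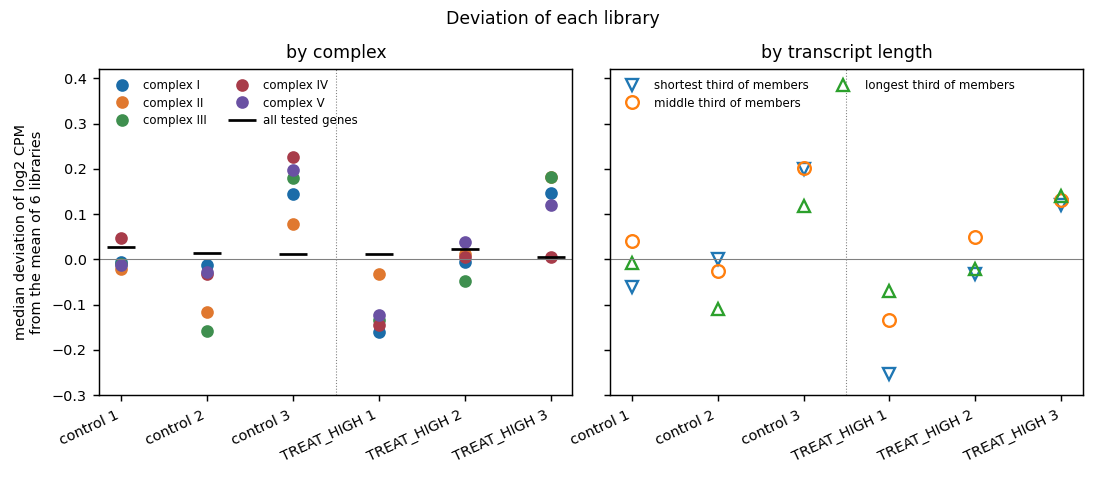
Median deviation of log2 CPM from the mean of the 6 libraries (y axis) for each library, on the left for the genes of each complex (points) and all tested genes (black bars), on the right for members by transcript length. TREAT_HIGH 1 lies at -0.25 for the shortest members and at -0.07 for the longest.

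In complex I, the smallest p-values were those of Ndufa2 and Ndufb5, both accessory subunits. Ndufa2 was at 1.89, 3.09 and 3.06 CPM in control 1 to 3 and at 1.05, 1.33 and 2.44 CPM in TREAT_HIGH 1 to 3, and the groups overlapped through control 1 and TREAT_HIGH 3. Its log2 difference was -0.74 ± 0.39 (SE; 95% interval -1.64 to 0.17), on 49 to 168 counts per library, and -1.17 without TREAT_HIGH 3. Ndufb5 (chr3:32736990-32751566 in the coordinates of the table) was at 49.6, 47.2 and 53.9 CPM in control and 43.9, 45.5 and 35.1 CPM in TREAT_HIGH. All 3 treated libraries were below all 3 controls, with a log2 difference of -0.28 ± 0.16 (SE; 95% interval -0.65 to 0.10; -0.17 without TREAT_HIGH 3).

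The core subunits of complex I had a median standard error of 0.16 on the log2 scale, against 0.22 for the accessory ones. Their median level was also higher (23.1 against 11.1 FPKM), and the part of level was not tested. In TREAT_HIGH 1 the median deviation was -0.19 for the core and -0.14 for the accessory subunits. Ndufs1, the largest iron-sulphur subunit of the arm that takes up electrons, was at 176, 155 and 173 CPM in control and 189, 164 and 171 CPM in TREAT_HIGH, a log2 difference of 0.05 (95% interval -0.25 to 0.36). Ndufv2, at the NADH end, was at 62.2, 64.8 and 67.6 CPM in control and 71.8, 58.7 and 49.5 CPM in TREAT_HIGH (-0.11, -0.50 to 0.28). In both of these the treated libraries spread to both sides of the controls or overlapped them. Ndufa4 was at 10.5, 11.2 and 13.6 CPM in control and 11.7, 14.9 and 9.65 CPM in TREAT_HIGH, which overlapped.

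In complex II, Sdha (chr13:74322254-74350280) was at 231, 225 and 249.3 CPM in control and 254, 252 and 257 CPM in TREAT_HIGH. All 3 treated libraries were above all 3 controls, yet by little, with a log2 difference of 0.11 ± 0.12 (SE; 95% interval -0.17 to 0.40). The other subunits overlapped between the groups. Sdhb was at 92.1, 91.2 and 108 CPM in control and 101, 91.6 and 109 CPM in TREAT_HIGH, a log2 difference of 0.05 that was 0.75 over annotated isoforms and 1.21 over protein-coding ones. Sdhd was at 38.8, 30.5 and 38.3 CPM in control and 35.2, 40.5 and 45.1 CPM in TREAT_HIGH. Sdhc was at 29.5, 29.8 and 33.6 CPM in control and 19.6, 28.1 and 33.0 CPM in TREAT_HIGH, with TREAT_HIGH 1 alone below the rest and a log2 difference of -0.20 that was -0.01 without it.

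In complex III, Uqcrq, a small subunit beside cytochrome b, was at 7.12, 7.00 and 19.0 CPM in control and 11.9, 18.1 and 20.2 CPM in TREAT_HIGH. Control 1 and control 2 were low and control 3 lay among the treated libraries. Its log2 difference was 0.60 ± 0.43 (SE; 95% interval -0.41 to 1.61) and 1.25 without control 3. Uqcrh was at 49.6, 35.1 and 29.0 CPM in control and 31.5, 28.8 and 32.6 CPM in TREAT_HIGH, where control 1 alone was high. The log2 difference of -0.29 (95% interval -0.80 to 0.22) was -0.05 without that library and 0.06 over protein-coding isoforms. Uqcrc2 (142, 134 and 166 CPM against 143, 144 and 162 CPM) and Uqcrc1 (110, 95.2 and 110 CPM against 76.7, 96.2 and 117 CPM) overlapped, and the log2 difference of Uqcrc1 was -0.12 over all and -0.82 over protein-coding isoforms.

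In complex IV, Cox4i1 (chr8:120668222-120674207) was at 93.5, 91.3 and 104 CPM in control and 83.7, 83.1 and 83.9 CPM in TREAT_HIGH. The treated libraries lay close together below all controls, with a log2 difference of -0.20 ± 0.12 (SE; 95% interval -0.49 to 0.09). This sign turned when isoforms were chosen differently: the difference was 0.33 over annotated isoforms alone and 0.58 over protein-coding ones. The assembled isoform MSTRG.39642.6, singled out after its values were seen, was at 1858, 1143 and 2346 counts in control against 9, 440 and 337 in TREAT_HIGH, while the coding isoform ENSMUST00000034276 had 760, 1325 and 1036 against 1729, 995 and 1326. Cox7a2 was at 86.7, 79.0 and 98.5 CPM in control and 82.8, 73.7 and 90.5 CPM in TREAT_HIGH, which overlapped, as did Cox5a (48.9, 48.1 and 62.7 against 45.7, 57.6 and 57.8 CPM).

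Several small subunits of complex IV had 1 library far from the rest. Cox8a was at 14.9, 12.8 and 15.03 CPM in control and 3.92, 14.4 and 15.6 CPM in TREAT_HIGH, and its log2 difference of -0.34 was 0.08 without TREAT_HIGH 1. Cox6b1, which joins the 2 copies of the enzyme into a dimer, was at 13.5, 24.3 and 32.3 CPM in control and 18.8, 26.6 and 5.72 CPM in TREAT_HIGH (-0.46, and -0.04 without TREAT_HIGH 3). Cox6c was at 49.8, 20.7 and 23.3 CPM in control and 26.9, 29.0 and 19.0 CPM in TREAT_HIGH (-0.32, and 0.18 without control 1). Each of these differences hung on the single library named. Cox6a1 ran from 13.3 CPM in TREAT_HIGH 1 to 33.3 CPM in TREAT_HIGH 3, with TREAT_HIGH 2 at 26.2 CPM and the controls at 19.7, 23.8 and 31.3 CPM between them. Cox7b (61.6, 45.1 and 67.0 against 48.0, 50.8 and 60.0 CPM) and Cox7b2 (0.814, 0.638 and 2.30 against 1.26, 0.467 and 0.54 CPM) overlapped between the groups. Cox5b (7.18, 6.88 and 6.38 against 4.52, 8.87 and 6.55 CPM), Cox7a2l (40.2, 49.9 and 47.5 against 54.2, 42.2 and 42.2 CPM) and Cox6a2 (0.814, 0.937 and 1.20 against 0.942, 0.607 and 0.899 CPM) also overlapped.

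Cox7a1 had the largest log2 difference of all members, 2.34 (95% interval -1.12 to 5.80), and it came from an assembled transcript in 1 library. It was at 3.42, 0.578 and 0.565 CPM in control and 0.428, 21.9 and 0.679 CPM in TREAT_HIGH, and without TREAT_HIGH 2 the difference was -1.44. The assembled isoform MSTRG.34689.1 (chr7:30169875-30186264, 5139 bases) held 97.3% of its counts, 939 of them in TREAT_HIGH 2. It begins at the same base as the long non-coding gene Gm5113, whose transcript had 0, 1737, 1603, 1409, 1003 and 2753 counts in the 6 libraries. The coding Cox7a1 isoform ENSMUST00000098594 had 33 counts in TREAT_HIGH 3 and 0 elsewhere.

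A similar assignment concerned Ndufa13, a complex I subunit listed at 0 counts in 5 libraries and at 43 in TREAT_HIGH 2. The assembled isoform MSTRG.38283.1 (chr8:69887788-69902529) spans its position under the symbol of the neighbouring gene Yjefn3, with 217, 130 and 275 counts in control and 52, 126 and 167 in TREAT_HIGH. Reads of the overlapping genes cannot be told apart in these values. For Ndufa12, another complex I subunit, 88.5% of counts were on an isoform annotated for nonsense-mediated decay. The rule also left out 8 "-ps" symbols, of which Ndufb1-ps had the most counts (278, 305 and 356 in control and 212, 268 and 221 in TREAT_HIGH).

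In complex V, the catalytic subunits overlapped between the groups. Atp5a1 was at 404, 399 and 498 CPM in control and 421, 454 and 491 CPM in TREAT_HIGH, a log2 difference of 0.07 (95% interval -0.27 to 0.41). Atp5b was at 263, 258 and 302 CPM in control and 267, 317 and 279 CPM in TREAT_HIGH (0.07, -0.25 to 0.39). Both intervals lie within 1.5-fold either way. For Atp5a1 the difference depended on the isoforms summed, and it was 0.30 over annotated isoforms and 1.22 for the isoform of highest mean count, with an adjusted p = 0.9999 from edgeR. Atp5f1, the stator subunit b, was at 134, 83.05 and 95.1 CPM in control and 92.7, 68.9 and 113 CPM in TREAT_HIGH, which overlapped.

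Atp5s and Atp5j had the smallest p-values of complex V. Atp5s (chr12:69669286-69756383), named as a coupling factor of ATP synthase, was at 35.2, 30.6 and 34.99 CPM in control and 25.3, 29.2 and 28.5 CPM in TREAT_HIGH. All 3 treated libraries were below the controls (log2 difference -0.28 ± 0.15, SE; 95% interval -0.64 to 0.07), and 99.9% of its counts were on assembled isoforms. Atp5j, the coupling factor F6 of the stator, was at 8.42, 12.2 and 18.8 CPM in control and 18.3, 19.7 and 17.7 CPM in TREAT_HIGH. Control 3 lay among the treated libraries, and the log2 difference was 0.50 (95% interval -0.18 to 1.18) on counts, 0.26 without control 1, 0.85 without control 3 and -0.02 on log2(FPKM + 0.1).

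The 3 genes for subunit c overlapped on counts. Atp5g3 was at 66.03, 58.4 and 77.6 CPM in control and 45.7, 62.0 and 74.7 CPM in TREAT_HIGH. Atp5g2 was at 20.7, 20.1 and 24.6 CPM in control and 16.7, 20.3 and 20.8 CPM in TREAT_HIGH. Atp5g1 was at 32.5, 26.5 and 38.5 CPM in control and 27.5, 35.3 and 28.4 CPM in TREAT_HIGH, a log2 difference of -0.09. On FPKM the same gene did not overlap, with 10.05, 9.50 and 12.0 FPKM in control and 6.79, 6.10 and 5.81 FPKM in TREAT_HIGH. FPKM depends on which isoform, and so which length, the reads were assigned to.

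Across all members, 4 of 78 (5.13%) did not overlap between the groups in CPM, against 7.09% of all tested genes. These were Sdha, higher in TREAT_HIGH, and Ndufb5, Cox4i1 and Atp5s, lower. The share was no larger than among all genes.

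The leading isoform of a gene often changed between libraries. The isoform with the most counts differed between libraries for 38 of 78 members (48.7%), against 34.0% of all tested genes and 49.3% of those with a coding isoform. Of 208 member isoforms with at least 100 counts in some library, 29 had 0 counts in another (13.9%), against 25.1% of such isoforms of all genes. For Atp5a1, ENSMUST00000114748 had 8605 and 11607 counts in control 1 and control 3, 0 in control 2 and 0, 8 and 0 in TREAT_HIGH. For Ndufa9, a complex I subunit near the coenzyme Q site, ENSMUST00000205002 had 2597 counts in control 2 and 2309 in TREAT_HIGH 2, but 22 to 61 in the other 4 libraries. Gene counts of Ndufa9 were even (3151 to 4203), while its FPKM was 29.4 and 29.8 in those 2 libraries and 13.8 to 15.8 in the others. For Ndufb9, the annotated isoform ENSMUST00000022980 had 0 counts in TREAT_HIGH 2 and 746 to 2049 elsewhere, and the FPKM of the gene was 6.79 there against 32.2 to 39.5.

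**Figure D5:**
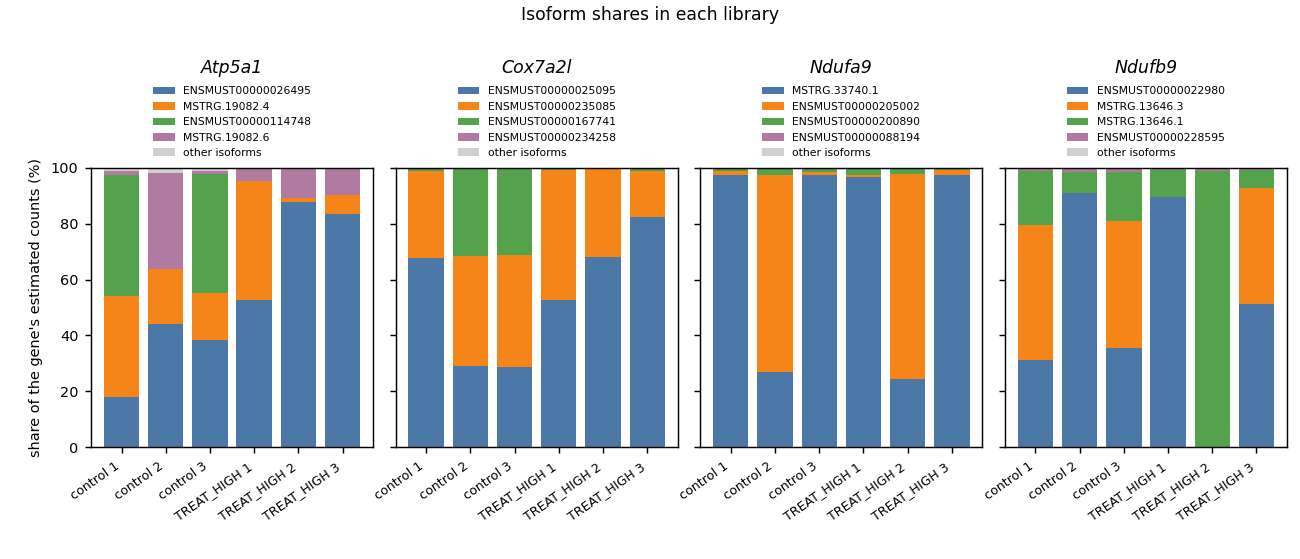
Share of each gene's estimated counts (y axis, percent) by isoform in each of the 6 libraries, for Atp5a1, Cox7a2l, Ndufa9 and Ndufb9. For Ndufa9 the leading isoform changes in control 2 and TREAT_HIGH 2, and for Ndufb9 the annotated isoform is at 0 in TREAT_HIGH 2.

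No member isoform passed the edgeR test. Of 69333 isoforms at or above a mean of 0.5 FPKM, 257 belonged to members, and 0 of these had an adjusted p under 0.05, against 0.00433% of all. At an unadjusted p under 0.05 there were 5 (1.95%), against 3.58% of all. limma on log2(FPKM + 0.1) gave 0 adjusted and 10 unadjusted, against 0.0317% and 3.75% of all. DESeq2 gave 2 adjusted and 21 unadjusted of the 257, against 1.41% and 7.48% of all isoforms, so its calls among members were near or below the background. Those 2 were the Cox7a2l isoform ENSMUST00000167741, with 25, 788 and 812 counts in control and 17, 7 and 26 in TREAT_HIGH, and the Atp5a1 retained-intron isoform ENSMUST00000128073, with 187, 331 and 249 counts in control and 99, 74 and 112 in TREAT_HIGH. For the first, control 1 lay with the treated libraries, and the log2 difference was -4.90 (95% interval -8.40 to -1.41, edgeR adjusted p = 0.99998). For the second, the groups did not overlap, and the difference was -1.30 (95% interval -2.14 to -0.46, edgeR adjusted p = 0.99998). The others with an unadjusted p under 0.05 were ENSMUST00000114748 of Atp5a1, the Atp5mpl isoform ENSMUST00000222874 (64, 62 and 21 counts against 7, 13 and 17; -1.82) and the assembled Uqcrc1 isoform MSTRG.41578.5 (287, 426 and 463 counts against 557, 1437 and 845; 1.46). The other isoforms named by p had none under 0.05. Among them was the Ndufv1 retained-intron isoform ENSMUST00000132747, at 203, 203 and 144 counts against 110, 92 and 48. In Sdha the retained-intron isoforms ENSMUST00000161434 (308, 234 and 142 counts against 765, 507 and 229) and ENSMUST00000160900 (8, 25 and 21 against 80, 17 and 16) overlapped between the groups. The Uqcrh isoform ENSMUST00000134760 had 200, 565 and 99 counts against 83, 73 and 97. On FPKM its groups overlapped, with 2.15 in control 3 and 2.28 in TREAT_HIGH 3. The Cox4i1 isoform ENSMUST00000181795 is listed at 0 in all libraries but TREAT_HIGH 2 (54 counts) and TREAT_HIGH 3 (137).

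By transcript type, protein-coding isoforms held 61.7% ± 2.0 of member counts in control and 64.3% ± 4.0 in TREAT_HIGH (SD, n = 3 each), above 42.8% to 46.7% of the counts of all genes. Retained-intron isoforms held 11.7% ± 0.6 and 12.0% ± 1.7, also above the share of all genes, 6.18% to 6.74%. The rest was mostly on assembled isoforms, with 23.3% ± 2.0 and 20.2% ± 2.0, against 36.4% to 39.0% over all genes. The rule required a protein-coding isoform, whereas all genes include those without one. The groups overlapped in each of these types.

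Few circular RNAs came from these genes. Circles are detected by back-splice reads, which cross the junction that closes them. Members had 62 of 109896 such reads, 32 in control and 30 in TREAT_HIGH, on 23 circles of 11 genes, 19 of which were seen in 1 library only. Of the tested members 14.1% hosted a circle, against 33.7% of the 12981 tested genes with a coding isoform and 51.3% of the 4521 such genes within the middle range of the members' FPKM. Back-splice reads per 1000000 linear counts were 58.9 for members and 486 for those 4521 genes. Members were also shorter, with a median top isoform of 4 exons and 741.5 bases against 11 exons and 3536 bases. The part of length in the number of circles was not tested.

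Among the circles, 2 had reads in at least 3 libraries, and edgeR gave neither an unadjusted p under 0.05 (4.95% of the 3275 tested circles had one) nor an adjusted one (0.0305%), and neither did DESeq2 (0.794% and 0.0305%). The one with the most reads was mmu_circ_0010288 of Atp5c1, the rotor shaft of ATP synthase (chr2:10058996-10064311, 5 exons), with 4, 5 and 0 reads in control and 5, 3 and 3 in TREAT_HIGH. The other, mmu_circ_0000044 of Ndufs1 (1 exon), had 1, 0 and 3 reads in control and 0, 1 and 0 in TREAT_HIGH. A circle of Sdhc, mmu_circ_0008426, had 0 reads in every control library and 2, 4 and 0 in TREAT_HIGH, and one of Ndufv2, mmu_circ_0006939, had 0, 3 and 1 reads in control and 0 in TREAT_HIGH. Each of the other 19 had 1 or 2 reads. At these depths a difference in any of them was not detectable.

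Other genes of the pathway were described from lists. Of their 142 tested genes, 0 had an adjusted p under 0.05 with edgeR, DESeq2 or limma, and 1, 4 and 2 had an unadjusted p under 0.05 with these tools. These are 0.704%, 2.82% and 1.41% of the list genes, each below the share of all tested genes. Groups did not overlap in CPM for 7.09% of all tested genes. Of the assembly factors this held for 1 of 19 for complex I and 2 of 9 for complexes II and III. It held for 3 of 26 for complex IV and 0 of 5 for complex V. The counts were 0 of 13 for coenzyme Q synthesis, 0 of 19 for the citric acid cycle and 1 of 13 for carriers and channels. They were 0 of 9 for antioxidants, 1 of 21 for regulators and 1 of 8 for subunits and carriers outside the names. Assembly factors lay on both sides of 0, each list being followed by its 2 genes of smallest p: 9 of 19 above 0 for complex I, 1 of 9 for complexes II and III, 11 of 26 for complex IV and 4 of 5 for complex V (median log2 difference 0.25). Lyrm7, a chaperone of the complex III iron-sulphur protein, was at 7.69, 7.34 and 7.58 CPM in control and 9.76, 14.3 and 8.95 CPM in TREAT_HIGH (log2 difference 0.55, 95% interval -0.00056 to 1.09), so all treated libraries were above the controls, while its isoform of highest mean count gave -0.38. Its coding isoform ENSMUST00000144164 is listed at 0 in 4 libraries and at 531 and 163 counts in TREAT_HIGH 2 and TREAT_HIGH 3. In the same list Uqcc2, which is needed for assembly of complex III, was at 11.3, 11.5 and 14.96 CPM in control and 9.55, 10.7 and 11.03 CPM in TREAT_HIGH, all below the controls (-0.27, 95% interval -0.74 to 0.19). Coa5, an assembly factor of complex IV, was at 42.6, 49.6 and 72.4 CPM in control and 51.8, 112 and 109 CPM in TREAT_HIGH (0.73 ± 0.33, SE), which overlapped through TREAT_HIGH 1. Cox16, of the same complex, was at 22.2, 17.6 and 20.2 CPM in control and 29.9, 22.6 and 26.1 CPM in TREAT_HIGH, all above the controls (0.39, 95% interval -0.04 to 0.81). Among the complex I factors, Nubpl, which delivers iron-sulphur clusters, was at 8.79, 7.996 and 7.80 CPM in control and 10.5, 9.04 and 9.75 CPM in TREAT_HIGH (0.25, 95% interval -0.18 to 0.68), again without overlap. Tmem126a was at 52.9, 27.2 and 27.1 CPM in control and 28.1, 20.8 and 31.9 CPM in TREAT_HIGH, where control 1 alone was high. For complex V, Tmem70 was at 29.4, 27.02 and 19.6 CPM against 32.7, 29.6 and 29.1 CPM, and Fmc1 at 2.34, 0.0798 and 2.19 CPM against 1.52, 3.64 and 3.02 CPM, and both overlapped.

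Coenzyme Q synthesis had 4 of 13 genes above 0, the citric acid cycle 13 of 19 (median 0.05) and the carriers and channels of ATP and phosphate 7 of 13. In the first of these lists, Coq8b was at 7.26, 8.89 and 8.87 CPM in control and 8.27, 11.4 and 9.87 CPM in TREAT_HIGH, and Coq10b at 35.8, 33.0 and 48.5 CPM and 38.3, 33.9 and 27.6 CPM. In the citric acid cycle, Dld, the shared dehydrogenase subunit of its 2-oxo acid complexes, was at 93.7, 76.2 and 91.4 CPM in control and 116, 88.6 and 89.5 CPM in TREAT_HIGH, and Sucla2, of succinate-CoA ligase, at 52.6, 70.8 and 80.4 CPM and 84.9, 68.99 and 75.9 CPM. These 4 genes overlapped between the groups. Slc25a13, the carrier of aspartate and glutamate, was at 3.50, 3.15 and 4.83 CPM in control and 3.13, 2.97 and 2.76 CPM in TREAT_HIGH, without overlap (-0.38, 95% interval -0.96 to 0.21). Vdac2, a channel of the outer membrane, overlapped at 124, 123 and 144 CPM against 151, 133 and 148 CPM. Of the mitochondrial antioxidants 1 of 9 was above 0, Sod2 (0.38), the superoxide dismutase of the matrix, at 219, 379 and 399.5 CPM in control and 515, 399.5 and 384 CPM in TREAT_HIGH. Nnt, which supplies NADPH to them, was at 36.5, 28.6 and 24.97 CPM in control and 26.4, 26.6 and 26.3 CPM in TREAT_HIGH. Both overlapped.

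Of the regulators of respiratory genes, 10 of 21 were above 0. Gabpa, the DNA-binding subunit of the factor whose motif is in 16 of the promoters, was at 13.1, 11.5 and 22.7 CPM in control and 31.9, 21.7 and 23.7 CPM in TREAT_HIGH. The groups overlapped through control 3 and TREAT_HIGH 2. Its log2 difference was 0.71 ± 0.30 (SE; edgeR adjusted p = 0.9997), and it ranged from 0.53 to 1.07 when 1 library was left out. On log2(FPKM + 0.1) it was -0.0019. Mterf4, a factor of mitochondrial ribosome assembly, was at 9.73, 14.7 and 7.75 CPM in control and 15.2, 17.7 and 15.5 CPM in TREAT_HIGH, without overlap (0.59, 95% interval -0.02 to 1.20). The other factors whose motifs were searched, named for that reason, overlapped between groups: Nrf1 was at 16.5, 37.4 and 24.4 CPM in control and 45.8, 42.4 and 21.7 CPM in TREAT_HIGH, Yy1 at 134, 25.5 and 21.4 CPM and 34.3, 89.4 and 129 CPM, and Esrra at 18.9, 20.2 and 23.4 CPM and 15.5, 19.6 and 18.04 CPM. Nuclear subunits and carriers that the names did not catch, such as Cyc1 and Cycs (cytochromes c1 and c) and Ndufab1, had 4 of 8 tested genes above 0, with differences from -0.20 to 0.26. Etfdh, which passes electrons from fatty acid oxidation to coenzyme Q, was at 28.4, 25.2 and 26.6 CPM in control and 21.97, 24.3 and 23.4 CPM in TREAT_HIGH, all below the controls (-0.20, 95% interval -0.55 to 0.15), and Ndufab1 was at 35.5, 24.8 and 29.7 CPM and 26.02, 25.8 and 26.8 CPM.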

How the data were processed

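The deposited table of linear transcripts holds an FPKM and an estimated count for each isoform and library. That of circular RNAs holds, per the file headers, the count of reads over each back-splice junction and the SRPBM, a deposited signal scaled by library. HISAT2, StringTie and TopHat stand in the submitters' processing notes; neither a version nor the genome build is given in the sources used here. Coordinates are those of the tables unless RefSeq is named.

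Gene counts were sums of the estimated counts (all whole numbers) over exon-sharing isoforms. Genes and isoforms needed a mean of 0.5 FPKM, and circles needed reads in 3 libraries or more. All 6 libraries entered the two-sided quasi-likelihood test in edgeR 4.0.16 under R 4.3.3, scaled by TMM, and for circles by the totals behind SRPBM. Adjusted p-values are Benjamini-Hochberg over all tested features, the threshold was 0.05, and the code was tested on simulated data. CPM is the count per 1000000 of the TMM-scaled library. Alternatives were DESeq2 1.42.0, limma 3.58.1 on log2(FPKM + 0.1) and log2(FPKM + 1), other library factors, filters and sums of isoforms, a replicate block, and each library left out.

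Named with values in every library were, per complex, the 3 members of highest FPKM and the 2 of smallest p, the genes with tissue-restricted copies and the Sdh genes, and per list the 2 genes of smallest p; copies below the tested level are given by range, and 1 gene that the rule names is not reported here. Isoforms were named by p within each complex and circles by reads (4, since the fifth place was tied). Genes outside this rule (Atp5h, Cox7b, Cox7b2, Ndufb4, Ndufa9, Ndufa12, Ndufa13, Ndufb9, Nrf1, Yy1, Esrra) were named after their values were seen. The members and lists were chosen with earlier results of these data known.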

Additional observations from a re-analysis of the deposited data

How the results depend on the processing

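With 3 libraries a group, the counts of 0 called genes and 0 called circles held under every alternative that gave a value; no member circle had reads in all 6 libraries, so that filter gave none. DESeq2 called 2 of 257 member isoforms, where it called 1.41% of all isoforms, in place of 0 with edgeR, and the other alternatives called 0. The median log2 difference of the members ran from -0.09 to 0.05 over the libraries left out in turn and from -0.09 to -0.0035 over the other alternatives, within the spread of the library medians (SD 0.12). Depth limits the circles and, among other genes, Ndufa2, Cox7a1, Ndufa12, Cox6a2 (26 to 66 counts) and Cox7b2 (20 to 126 counts), which rest on few counts. No named gene or isoform of edgeR passed the adjusted threshold, and the cause of the changes of sign given next was not tested.

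With annotated isoforms only, the log2 difference took the other sign for Atp5g3 (0.28), Atp5j (-0.15), Cox4i1 (0.33), Cox5b (0.55), Sdhd (-0.12), Sod2 (-0.0089) and Tmem126a (0.051). With protein-coding isoforms only, it did so for Atp5g3 (0.60), Coq8b (-0.16), Cox4i1 (0.58), Cox5a (-0.0090), Cox5b (0.59), Ndufa4 (-0.036), Ndufab1 (0.014), Sdhd (-0.15) and Uqcrh (0.063). With the isoform of highest mean count alone, it did so for Coq8b (-0.21), Cox4i1 (0.17), Lyrm7 (-0.38), Ndufv2 (0.14), Nnt (0.23), Sdhd (-0.11), Sod2 (-0.020) and Uqcrh (0.085). Library totals in place of TMM gave Cox5a -0.016, Cox7a2l -0.029 and Uqcrc2 -0.0088. On log2(FPKM + 0.1) with limma, the values were Atp5j -0.020, Cox5a -0.0048, Cox5b 0.11, Cox7a2l -0.018, Gabpa -0.0019, Ndufa4 -0.041, Sdhb -0.034, Sdhd -0.040 and Uqcrc2 -0.0014. On log2(FPKM + 1) they were Atp5j -0.017, Cox5a -0.0047, Cox5b 0.10, Cox7a2l -0.018, Ndufa4 -0.038, Sdhb -0.034, Sdhd -0.033 and Uqcrc2 -0.0013. Without a change of sign, values also left the 95% interval of the edgeR estimate with the isoform of highest mean count for Atp5a1 (1.22), Cox7a2l (0.74), Gabpa (1.59), Mterf4 (1.63), Ndufab1 (-0.92), Ndufs1 (0.42), Sdhb (0.72), Tmem70 (1.29) and Uqcrc1 (-0.81). They did so with annotated isoforms for Sdhb (0.75) and Uqcrc1 (-0.68), with protein-coding ones for Sdhb (1.21), Uqcrc1 (-0.82) and Lyrm7, and on log2(FPKM + 0.1) and log2(FPKM + 1) for Atp5g1 (-0.74 and -0.67), and on log2(FPKM + 1) for Gabpa (0.00073).

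With 1 library left out, the signs of 17 named genes and 1 circle changed in at least 1 case, with ranges of -0.015 to 0.14 for Atp5b, -0.36 to 0.038 for Atp5f1, -0.22 to 0.046 for Atp5g1, -0.32 to 0.028 for Atp5g3, -0.054 to 0.15 for Cox5a, -0.31 to 0.19 for Cox5b, -0.34 to 0.26 for Cox6a1, -0.55 to 0.18 for Cox6c, -1.44 to 3.74 for Cox7a1, -0.12 to 0.075 for Cox7a2l, -0.64 to 0.081 for Cox8a, -0.15 to 0.17 for Ndufa4, -0.0016 to 0.089 for Ndufs1, -0.26 to 0.0088 for Ndufv2, -0.0096 to 0.14 for Sdhb, -0.28 to 0.031 for Uqcrc1, -0.042 to 0.12 for Uqcrc2 and -0.082 to 1.06 for mmu_circ_0010288.

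The groups share replicate numbers in the labels. The deviations of same-numbered libraries correlated at 0.172, 0.0986 and 0.0594 over genes, not all above 0.1, although each library correlated best with its own number, so the numbers were not taken to pair the samples. With the replicate number as a block, 0 member genes, 0 isoforms and 0 circles were called, 1 of 78 genes and 9 of 257 isoforms had an unadjusted p under 0.05 (3.21% and 4.31% of all), and the median log2 difference was -0.06.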
